A study of Homo sapiens with 24 samples.

Results

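The 9 genes described here encode chromobox, RING finger, PCGF, and PHC subunits of Polycomb repressive complex 1 (PRC1): CBX2, CBX6, CBX7, CBX8, RNF2, BMI1, PCGF2, PCGF6, and PHC2. They were taken by symbol from the 26645 gene entries of the raw count table, and all 9 were among the 14741 genes that passed the filter on low counts. The set was chosen by the measured fall of CBX2 from 0 h to 2 h in both cell lines, so the change of CBX2 at 2 h is given as a description with no test. RNA came from MB468 cells (MDA-MB-468, a triple-negative breast cancer line that needs methionine, Met, to proliferate) and from MB468res-R8, a single Met-independent clone obtained from MB468 by prolonged culture in medium with homocysteine (Hcy), the metabolic precursor of Met. The 0 h cultures of each line grew in Met+ (100 µM Met), and the others spent 0.5, 2, or 12 h in Met-Hcy+, where 370 µM Hcy took the place of Met. Every one of the 8 groups had 3 libraries, 24 in all. No library came from a culture kept in Met+ to 0.5, 2, or 12 h. At each of these times, time in culture, the change of medium, and the loss of Met therefore cannot be told apart.

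Polycomb proteins keep developmental genes silent in chromatin. In canonical PRC1, a CBX protein reads trimethylated histone H3, the mark written by Polycomb repressive complex 2 (PRC2), while a RING protein paired with a PCGF protein places ubiquitin on histone H2A and a PHC protein joins complexes to each other. In variant PRC1 the CBX and PHC subunits are replaced by RYBP or YAF2, and the PCGF subunit sets the kind of complex, with PCGF6 as the PCGF subunit of a complex that also holds MGA and L3MBTL2. Met is the source of S-adenosylmethionine, the methyl donor of histone methyltransferases.

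Sequences upstream of 3 members are shown because these genes took different directions by 12 h: PCGF6 rose in both lines, CBX7 fell in both lines, and CBX6 rose in MB468. The windows are from RefSeq (GRCh38.p14) and run from 250 bases before to 50 after the start. They were read for 7 of the 9 members, and not for CBX2 or CBX8. CBX6 and CBX7 lie 248 kb apart on chromosome 22, on the same strand. Capitals mark matches, on either strand, to 4 motifs picked after the data were seen: the E-box CACGTG, the C/EBP-ATF type element TGATGCAA, the GC box GGGCGG, and 2 E2F-type octamers (TTTCCCGC and TTTGGCGC).
PCGF6, chr10:103351091-103351390, minus strand: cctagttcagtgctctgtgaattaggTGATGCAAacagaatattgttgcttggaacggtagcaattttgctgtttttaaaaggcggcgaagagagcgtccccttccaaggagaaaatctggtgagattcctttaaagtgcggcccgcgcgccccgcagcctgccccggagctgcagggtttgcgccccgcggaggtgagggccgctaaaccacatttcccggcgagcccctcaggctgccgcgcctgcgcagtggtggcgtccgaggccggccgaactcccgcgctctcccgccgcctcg
CBX6, chr22:38872167-38872466, minus strand: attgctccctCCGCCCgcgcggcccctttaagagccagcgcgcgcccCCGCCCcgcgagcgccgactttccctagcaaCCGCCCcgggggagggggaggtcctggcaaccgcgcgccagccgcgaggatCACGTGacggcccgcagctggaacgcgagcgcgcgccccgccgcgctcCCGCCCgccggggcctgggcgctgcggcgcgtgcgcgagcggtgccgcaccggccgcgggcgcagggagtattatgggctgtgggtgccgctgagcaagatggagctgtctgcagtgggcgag
CBX7, chr22:39152631-39152930, minus strand: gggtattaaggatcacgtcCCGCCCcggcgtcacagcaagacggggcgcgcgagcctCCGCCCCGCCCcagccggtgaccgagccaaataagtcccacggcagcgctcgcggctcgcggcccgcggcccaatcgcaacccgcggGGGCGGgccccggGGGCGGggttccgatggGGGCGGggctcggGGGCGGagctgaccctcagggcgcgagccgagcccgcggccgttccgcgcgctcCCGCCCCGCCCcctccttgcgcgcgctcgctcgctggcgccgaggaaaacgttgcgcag

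The PCGF6 window held 1 TGATGCAA, a motif found in 0.866% of the 35116 RefSeq windows of the same length, and no E-box, GC box, or E2F match, the last present in 2.27% of windows. CBX6 held 1 E-box, present in 7.26% of all windows, and 4 GC boxes. Neither was particular to CBX6: a window of PHC2 and a window of BMI1 also held 1 E-box. The windows of PHC2, RNF2, and BMI1 held 4 to 6 GC boxes each. CBX7 held 9 GC boxes, counting overlaps, where 45% of all windows held at least 1. CpG counts were 28 for PCGF6, 47 for CBX6, and 50 for CBX7, at the 73.8, 97.6, and 98.7 percentiles of all windows. A match is a string of letters and was not tested for binding.

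Total counts ranged from 11745553 to 36496655 per library, with a median of 20503827, and added spike-in RNAs took 0.201% to 0.303%. Replicate 2 of MB468 at 2 h stood apart, with 1693 CPM (counts scaled to a fixed library total) on 8 RNAs without a poly(A) tail (RN7SK among them) against 7.62 to 31.7 in the other 23 libraries, and the values of CBX2, CBX6, CBX8, PHC2, and the listed genes in MB468 at 2 h are given with and without it. Epithelial markers were high in every group, from 5930 normalized counts for CDH1 to 92980 for EGFR as group means, while PGR, PTPRC, CD3E, and COL1A2 did not exceed 2.22. Of the other listed markers of receptors and other cells, ESR1 had group means of 108 to 485 normalized counts, ERBB2 935 to 2009, COL1A1 338 to 1488, and PECAM1 14.5 to 52.7, and the sum over this list of 8 was 3285 to 4134 in MB468res-R8 at 0 h and 1680 to 2024 at 12 h, against 3075 to 3178 and 2420 to 2671 in MB468. Their part in the results was not tested.

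Normalized counts are raw counts scaled to a common library size with TMM factors from edgeR. A gene is called when its p from the edgeR quasi-likelihood test, adjusted over all 14741 genes by the method of Benjamini and Hochberg, is under 0.05. Per kb of exon, the level at 0 h in MB468 was highest for PHC2 (462 ± 7.12 normalized counts per kb, SD, n = 3), then CBX2 (382 ± 13.8) and CBX6 (370 ± 2.00), with RNF2 at 183 ± 3.72, CBX8 at 94.6 ± 5.21, CBX7 at 58.9 ± 0.650, PCGF6 at 57.6 ± 4.73, BMI1 at 2.65 ± 0.914, and PCGF2 at 2.09 ± 1.33. The neighbours CBX2 and CBX6, CBX7 and PCGF6, and BMI1 and PCGF2 differed by less than their spread.

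CBX2, a chromobox subunit that compacts nucleosomes as well as reading the methylated histone, lies on chromosome 17 at 79778148 to 79787983 (GENCODE, GRCh38, plus strand). In MB468 its normalized counts were 2251, 2144, and 2099 at 0 h, 1967, 1937, and 2066 at 0.5 h, 1074, 1065, and 1028 at 2 h, and 4236, 4136, and 4024 at 12 h. In MB468res-R8 they were 1860, 1863, and 1895 at 0 h, 1935, 1931, and 1896 at 0.5 h, 955.3, 902.1, and 1075 at 2 h, and 2588, 2214, and 2272 at 12 h. All 6 libraries at 2 h lay below all 18 others, and the 3 MB468 libraries at 12 h lay above all others.

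**Figure D1:**
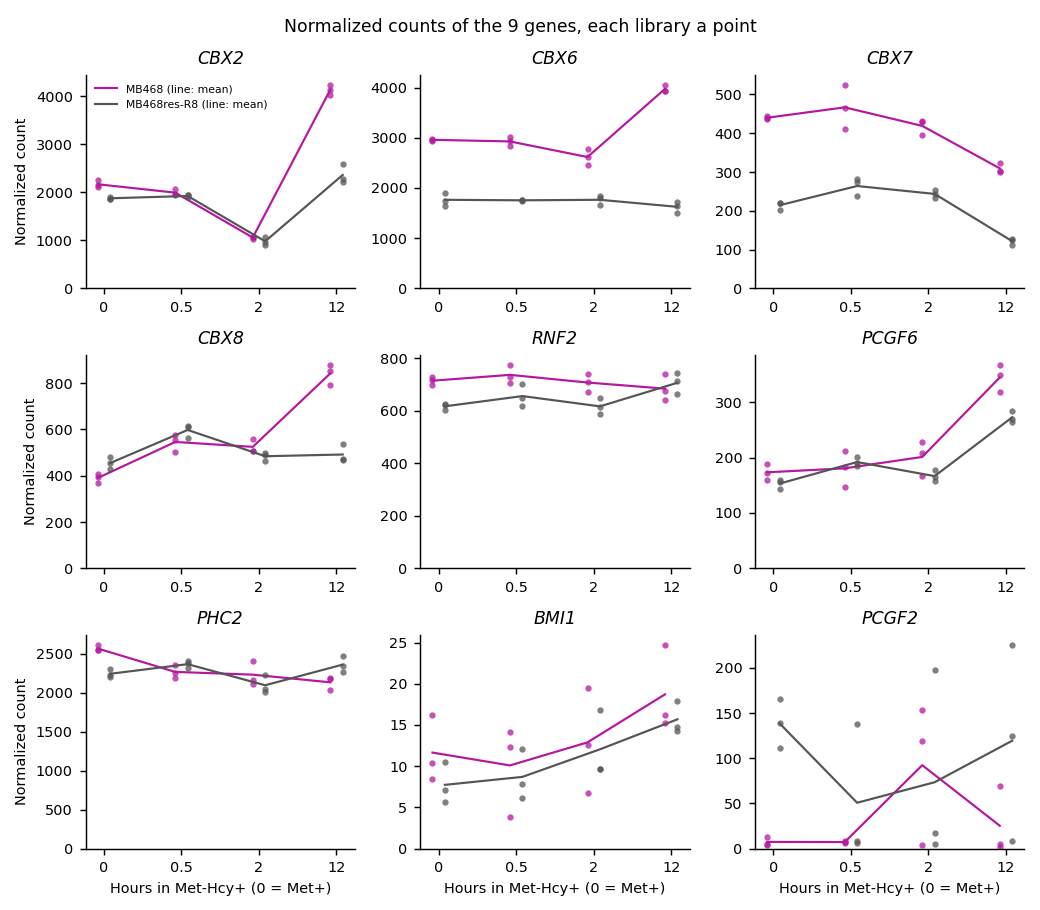
Normalized count of each of the 9 genes (linear axes from 0) against hours in Met-Hcy+ (times evenly spaced, 0 h in Met+), for MB468 (magenta) and MB468res-R8 (grey), where each point is a library and each line joins the means of 3. CBX2 sat at 1056 and 978 at 2 h and at 4132 and 2358 at 12 h in MB468 and MB468res-R8, and the PCGF2 points were split between low and high in 5 of the 8 groups.

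As a description, CBX2 at 2 h was at 48.8% of its 0 h mean in MB468 (1056 ± 24.4 against 2165 ± 78.0 normalized counts, SD, n = 3) and at 52.2% in MB468res-R8 (978 ± 88.7 against 1872 ± 19.4). The log2 fold changes were -1.04 ± 0.056 and -0.95 ± 0.055 (SE), which differed by 0.09 on the log2 scale. Without replicate 2 of MB468 at 2 h the value in MB468 was -1.04. With spike-in totals as library sizes it was -1.46, where the median of all genes had moved to -0.42, so that the distance to the median was -1.04.

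Between 2 h and 12 h, also a description, CBX2 rose 3.92-fold in MB468 and 2.43-fold in MB468res-R8. The comparison of 12 h with 0.5 h used no library that chose the set: CBX2 was 2.08-fold higher at 12 h in MB468 (log2 1.06 ± 0.050, adjusted p = 1.84e-21) and 1.23-fold higher in MB468res-R8 (log2 0.30 ± 0.051, adjusted p = 4.11e-06). With spike-in totals as library sizes the rise in MB468res-R8 was 0.26 with an adjusted p of 0.103. The rise from 0.5 h was smaller in MB468res-R8 than in MB468 by 0.76 on the log2 scale (adjusted p = 6.82e-12), a comparison added after the data were seen in which 56.1% of all genes were called.

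Against 0 h, whose libraries also served in choosing the set, CBX2 at 12 h was 1.91-fold higher in MB468 (log2 0.93 ± 0.050, adjusted p = 7.03e-20) and 1.26-fold higher in MB468res-R8 (log2 0.34 ± 0.051, adjusted p = 4.34e-07). The difference between the lines was -0.60 ± 0.071 (adjusted p = 2.42e-09) and was -0.35 with an adjusted p of 0.115 under spike-in totals. At 0.5 h the log2 fold change was -0.13 in MB468 (adjusted p = 0.0560) and 0.04 in MB468res-R8 (adjusted p = 0.633). In MB468 this value passed the threshold under 6 of 12 alternatives. Of the 8 group means in rising order, the 2 h groups overlapped each other, as did MB468 at 0 h and MB468res-R8 at 12 h, while the other neighbours did not overlap.

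CBX8, another reader of the methylated histone, lies on the opposite strand, with its own end 4149 bases past the end of CBX2. Its normalized counts in MB468 were 395.7, 408.8, and 366.8 at 0 h, 577.8, 556.6, and 504 at 0.5 h, 559.9, 509.1, and 505.8 at 2 h, and 879.1, 793.9, and 853.5 at 12 h. In MB468res-R8 they were 480.6, 454.2, and 430.2 at 0 h, 615.9, 565.1, and 612.8 at 0.5 h, 463.8, 491.8, and 497.7 at 2 h, and 535.6, 473.7, and 466.3 at 12 h. Every later MB468 library was above the 0 h libraries, and in MB468res-R8 that held at 0.5 h but not at 2 h or 12 h.

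CBX8 rose at 0.5 h in both lines, by 0.49 ± 0.075 in MB468 (adjusted p = 1.34e-06) and by 0.39 ± 0.074 in MB468res-R8 (adjusted p = 3.94e-05) on the log2 scale. At 2 h, when CBX2 was at its lowest, CBX8 was 0.42 ± 0.078 above 0 h in MB468 (adjusted p = 7.25e-05), or 0.44 without replicate 2 of MB468 at 2 h (adjusted p = 2.35e-04), and the value in MB468res-R8 was 0.09 (adjusted p = 0.738). At 12 h it was 2.15-fold higher in MB468 (log2 1.11 ± 0.071, adjusted p = 3.21e-17) and stood at 1.079 times its 0 h level in MB468res-R8 (log2 0.11, 95% interval -0.04 to 0.26, adjusted p = 0.203). The difference between the lines at 12 h was -0.996 ± 0.10 (adjusted p = 6.96e-11), the largest in size among the 8 members other than PCGF2. In MB468res-R8, CBX8 was lower at 12 h than at 0.5 h by 0.28 on the log2 scale (adjusted p = 0.00102), a call lost under spike-in totals (-0.32, adjusted p = 0.0663). With spike-in totals the rise of CBX8 in MB468 was 0.28 at 0.5 h (adjusted p = 0.149) and 0.00 at 2 h (adjusted p = 0.985), where the medians of all genes were -0.20 and -0.42.

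Of 8 listed neighbours of CBX2 in 17q25.3, CBX8 included, 7 were tested. At 2 h, CBX8 was higher and TBC1D16 (log2 -0.28) lower than at 0 h in MB468, with a median log2 fold change over the 7 of -0.11 against 0.01 over all genes, and 0 were called in MB468res-R8, where 16.3% and 4.37% of all genes were called. Without replicate 2 of MB468 at 2 h the same numbers were called, with TBC1D16 at -0.31, and with spike-in totals 0 were higher and 6 lower in MB468. At 12 h, when 70.8% and 61.3% of all genes were called, 2 were higher and 5 lower in MB468, with a median of -0.57, and 1 was higher and 4 lower in MB468res-R8, with a median of -0.43. CARD14, a scaffold of NF-kB signalling, fell by 1.756 in MB468 and by 1.097 in MB468res-R8 at 12 h on the log2 scale.

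CBX6, a chromobox protein of the same group, had normalized counts in MB468 of 2943, 2959, and 2975 at 0 h, 2928, 2832, and 3020 at 0.5 h, 2610, 2779, and 2459 at 2 h, and 4057, 3936, and 3930 at 12 h. In MB468res-R8 the 12 libraries lay between 1505 and 1905, below all MB468 libraries. CBX6 was lower in MB468res-R8 at 0 h by 0.75 ± 0.051 on the log2 scale (adjusted p = 4.02e-16). In MB468 it was 0.18 ± 0.050 lower at 2 h (adjusted p = 0.00866) and 1.34-fold higher at 12 h (log2 0.43 ± 0.048, adjusted p = 2.70e-10). In MB468res-R8 the value at 12 h was -0.12 (adjusted p = 0.0536), and the difference between the lines was -0.54 ± 0.071 (adjusted p = 1.91e-08). With spike-in totals the rise in MB468 was 0.19 (adjusted p = 0.199), 0.42 above the median of all genes, and the difference between the lines was -0.29 (adjusted p = 0.200). Leaving out replicate 3 of MB468 at 2 h gave -0.14 with an adjusted p of 0.0991, and leaving out replicate 2 gave -0.22 (adjusted p = 0.00343).

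CBX7, the chromobox protein best known for silencing the INK4 locus, had normalized counts in MB468 of 436.1, 445.4, and 438.4 at 0 h, 464, 411.3, and 525.2 at 0.5 h, 432.3, 396.4, and 428.2 at 2 h, and 324.4, 300.9, and 302.9 at 12 h. In MB468res-R8 they were 201.4, 220.4, and 221 at 0 h, 273.9, 280.8, and 237 at 0.5 h, 233.5, 253, and 243.9 at 2 h, and 112.7, 127.5, and 124.6 at 12 h. The 12 h libraries were the lowest of their line in both lines, and no MB468res-R8 library reached the lowest MB468 library. CBX7 in MB468res-R8 was at 0.485 of its MB468 level at 0 h (log2 -1.04 ± 0.091, adjusted p = 7.81e-13). From 0 h to 12 h it fell by 0.51 in MB468 (adjusted p = 1.64e-06) and by 0.81 in MB468res-R8 (adjusted p = 9.41e-09) on the log2 scale.

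In MB468res-R8, CBX7 was 1.24-fold higher at 0.5 h than at 0 h (adjusted p = 0.0102), a call that was lost under spike-in totals (adjusted p = 0.143) and without any of 3 libraries of that comparison (adjusted p of 0.0559 to 0.0789). The difference between the lines at 12 h was -0.31 ± 0.13 (adjusted p = 0.0482) and lost its call under 6 of the 6 alternatives that kept all libraries, the replicate block among them (adjusted p = 0.0547), and when any of 11 of the 12 libraries was left out. A lncRNA on the opposite strand covers 17.9% of the exonic bases of CBX7, and the library kit did not keep strand.

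PCGF6 was the member of the PCGF family with the clearest change. Its normalized counts in MB468 were 188.4, 160.2, and 171.4 at 0 h, 182.9, 212.3, and 146.2 at 0.5 h, 208.1, 167.1, and 227.9 at 2 h, and 367.1, 348.4, and 317.5 at 12 h. In MB468res-R8 they were 156.2, 143.2, and 159.5 at 0 h, 190.2, 183.9, and 201.4 at 0.5 h, 165.3, 157.3, and 176.6 at 2 h, and 269.1, 264.2, and 284.1 at 12 h. In both lines all 12 h libraries lay above all earlier ones. PCGF6 rose 1.99-fold by 12 h in MB468 (log2 0.99 ± 0.11, adjusted p = 1.26e-10) and 1.78-fold in MB468res-R8 (log2 0.83 ± 0.11, adjusted p = 4.03e-08), and the difference between the lines was -0.16 with a 95% interval from -0.48 to 0.16 (adjusted p = 0.415). At 0.5 h PCGF6 was 0.33 ± 0.12 higher in MB468res-R8 (adjusted p = 0.0301). That call was lost under spike-in totals (adjusted p = 0.160) and without any of 4 libraries of that comparison.

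RNF2, the RING subunit that transfers ubiquitin to histone H2A, stayed within a narrow range. In MB468 its 12 libraries lay between 640.6 and 775.3 normalized counts and in MB468res-R8 between 588.2 and 744.8. RNF2 was lower in MB468res-R8 at 0 h by 0.21 ± 0.068 on the log2 scale (adjusted p = 0.00772). No change from 0 h passed the test in MB468, though with spike-in totals the value at 2 h was -0.44 (adjusted p = 0.00565), where the median of all genes was -0.42, and at 12 h the log2 fold change there was -0.07 with a 95% interval from -0.20 to 0.07. In MB468res-R8 it rose by 0.20 ± 0.068 at 12 h (adjusted p = 0.0121), with 662.7 to 744.8 at 12 h against 603.5 to 627.6 at 0 h, and the difference between the lines was 0.26 ± 0.094 (adjusted p = 0.0165). Without replicate 2 of MB468res-R8 at 12 h, the rise was 0.16 (adjusted p = 0.0715) and the difference between the lines 0.23 (adjusted p = 0.0504), and with spike-in totals the rise was 0.22 (adjusted p = 0.213).

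PHC2, a Polyhomeotic subunit through which PRC1 complexes cluster, had normalized counts in MB468 of 2542, 2612, and 2545 at 0 h, 2256, 2192, and 2351 at 0.5 h, 2409, 2167, and 2117 at 2 h, and 2031, 2180, and 2187 at 12 h. In MB468res-R8 they were 2305, 2197, and 2225 at 0 h, 2317, 2377, and 2403 at 0.5 h, 2011, 2227, and 2047 at 2 h, and 2473, 2266, and 2341 at 12 h. All 9 later MB468 libraries lay below the 0 h libraries. PHC2 fell in MB468 by 0.18 at 0.5 h, by 0.20 at 2 h, and by 0.27 at 12 h on the log2 scale (adjusted p = 0.00267, 0.00258, and 3.77e-06), with 0.18 at 2 h when replicate 2 of that group was left out (adjusted p = 0.0187), and none of its changes from 0 h passed the test in MB468res-R8 (adjusted p of 0.250, 0.388, and 0.186). The lines differed in the change at 0.5 h by 0.26 ± 0.069 (adjusted p = 0.0254) and in that at 12 h by 0.34 ± 0.068 (adjusted p = 3.60e-05). The difference at 0.5 h was lost when replicate 2 of any of the 4 groups compared was left out (adjusted p up to 0.0712) and under spike-in totals (adjusted p = 0.234).

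**Figure D2:**
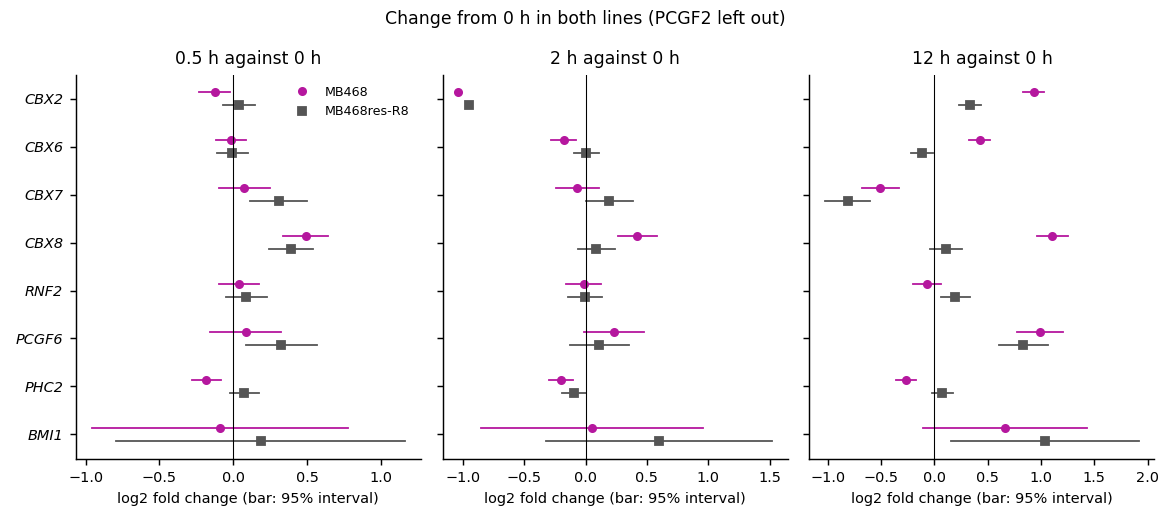
Log2 fold change from 0 h (horizontal axis) of 8 of the genes at 0.5, 2, and 12 h in MB468 (magenta circles) and MB468res-R8 (grey squares), with bars for the 95% interval of the edgeR fit, except for CBX2 at 2 h, which chose the set. At 2 h CBX2 stands at -1.04 and -0.95, and at 12 h CBX8 stands at 1.11 in MB468 and 0.11 in MB468res-R8.

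BMI1, a PCGF subunit that pairs with RNF2, was close to the limit of detection, with raw counts of 2 to 39 per library and group means of 7.73 to 18.7 normalized counts. Its biological coefficient of variation, the spread between replicates beyond counting, was 20.5% against a median of 5.84% over all genes. The only call was at 12 h in MB468res-R8, where 14.31, 14.8, and 17.94 normalized counts stood against 7.137, 5.593, and 10.46 at 0 h (log2 1.04 ± 0.44, adjusted p = 0.0372). That call was lost under DESeq2 (adjusted p = 0.0566), with spike-in totals (adjusted p = 0.0659), without the low-count filter (adjusted p = 0.0611), and without any of 4 libraries. In GENCODE, 22.8% of the exonic bases of BMI1 are shared with the read-through gene COMMD3-BMI1, which was listed at 0 in all 24 libraries, and how reads on shared exons were counted is not given in the sources used here.

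PCGF2 (Mel-18), the closest relative of BMI1, gave counts of 2 kinds. In 14 libraries its raw count was 2 to 12 and in 10 libraries 79 to 306. At 0 h the raw counts were 6, 5, and 9 in MB468 and 175, 148, and 85 in MB468res-R8, and at 0.5 h they were 11, 5, and 4 and 9, 114, and 5. At 2 h they were 89, 79, and 3 and 5, 306, and 12, and at 12 h 2, 5, and 109 and 252, 109, and 9. Low and high libraries stood side by side in 5 of the 8 groups.

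The coefficient of variation of PCGF2 was 117%, and 9 of 14741 genes had a larger one. The only call was the higher level in MB468res-R8 at 0 h (log2 4.37, 95% interval 0.75 to 8.001, adjusted p = 0.0407), and it was lost without any of its 6 libraries. The other 4 protein-coding genes within 50 kb of PCGF2 on chromosome 17 also had low medians beside far higher maxima: PSMB3, a proteasome subunit, had a median raw count of 16 and a highest of 638, MLLT6 18.5 and 141, CISD3 1.5 and 87, and PIP4K2B 4 and 34. CISD3 overlaps 48.5% of the exonic bases of PCGF2 on the opposite strand. The cause of the spread was not tested, and no direction is drawn for PCGF2.

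**Figure D3:**
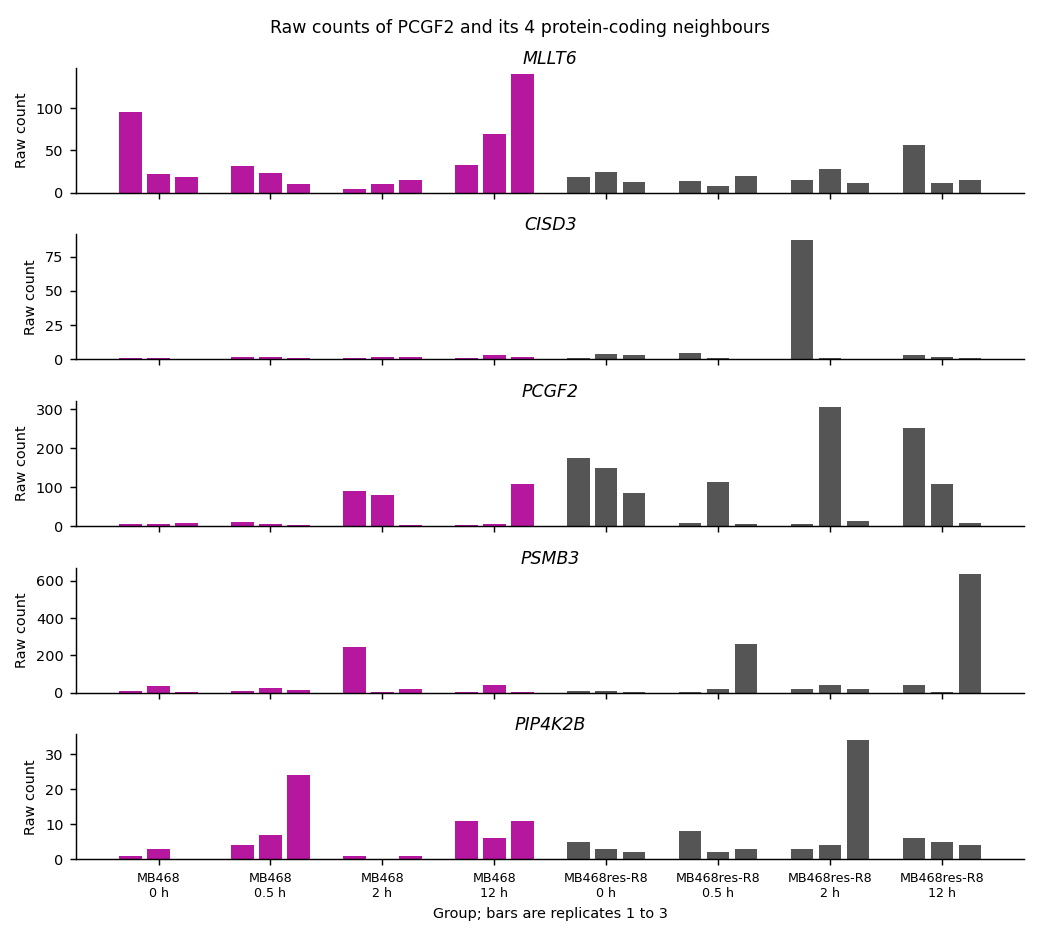
Raw counts (linear axes from 0, separate for each gene) of PCGF2 and its 4 protein-coding neighbours in the 24 libraries, with MB468 in magenta and MB468res-R8 in grey and 3 bars per group for replicates 1 to 3. PCGF2 reached 306 in replicate 2 of MB468res-R8 at 2 h, CISD3 reached 87 in replicate 1 of that group, and PSMB3 reached 638 in replicate 3 of MB468res-R8 at 12 h.

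Counted over the members, 7 of 9 differed between the lines at 0 h, 2 higher and 5 lower in MB468res-R8, where 53.5% of all genes were called and the median log2 difference of the members was -0.21 against 0.00. The 7 fell to 5 or 6 whichever library was left out. CBX8 and PCGF2 were the higher ones, though no direction is drawn for PCGF2. The call of CBX8 was lost without replicate 3 of MB468 at 0 h (adjusted p = 0.0871) or replicate 1 of MB468res-R8 at 0 h (adjusted p = 0.122). With spike-in totals the value of CBX8 turned from 0.22 (adjusted p = 0.0140) to -0.09 (adjusted p = 0.619), while the median of all genes moved to -0.31. At 0.5 h, 2 of 9 were called in MB468 (1 higher, 1 lower) against 33.9% of all genes, and 3 of 9 in MB468res-R8, all higher, against 33.7%. The 3 in MB468res-R8 fell to 1 under spike-in totals, without replicate 1 of MB468res-R8 at 0 h, and without replicate 1 at 0.5 h.

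At 2 h, 3 of the 8 members other than CBX2 were called in MB468, with CBX8 higher and CBX6 and PHC2 lower, against 16.3% of all genes (0 higher and 4 lower with spike-in totals). In MB468res-R8, edgeR called 0 of 8 at 2 h, against 4.37% of all genes, with 1 member (CBX7) at an unadjusted p under 0.05, and DESeq2 also called 0. At 12 h, 6 of 9 were called in MB468 (4 higher, 2 lower) against 70.8% of all genes and 5 of 9 in MB468res-R8 (4 higher, 1 lower) against 61.3%. With spike-in totals these were 3 higher and 2 lower in MB468 and 2 higher and 1 lower in MB468res-R8. Over the members, the log2 fold change at 12 h had a median of 0.66 in MB468 and of 0.11 in MB468res-R8, against 0.01 and -0.02 over all genes. Without BMI1 and PCGF2, left out after their values were seen, the medians were 0.43 and 0.11. With spike-in totals those of all 9 were 0.40 and 0.12, and those without BMI1 and PCGF2 were 0.19 and 0.12. The 5 fell to 3 once replicate 2 of MB468res-R8 at 12 h was left out.

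From 2 h to 12 h, 4 of 8 were called in MB468 (3 higher, 1 lower) and 5 of 8 in MB468res-R8 (3 higher, 2 lower), against 69.7% and 62.5% of all genes. The 5 fell to 3 without replicate 2 of MB468res-R8 at 2 h or at 12 h. From 0.5 h to 12 h, 5 of 9 were called in MB468 (4 higher, 1 lower) against 70.8% and 4 of 9 in MB468res-R8 (2 higher, 2 lower) against 59.2%.

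The response differed between the lines for 1 of 9 members at 0.5 h (PHC2), against 2.9% of all genes. At 2 h edgeR called 0 of the 8 members other than CBX2, against 5.07% of all genes, with CBX6 and CBX8 the 2 at an unadjusted p under 0.05, and DESeq2 called 0. Without replicate 3 of MB468res-R8 at 0 h both passed, with adjusted p of 0.0465 and 0.0428. At 12 h, 6 of 9 differed, against 56.5% of all genes: CBX2, CBX6, CBX7, and CBX8 were lower and PHC2 and RNF2 higher in the response of MB468res-R8. The lower ones were the 4 chromobox members, but the call of CBX7 was lost in 17 of 18 alternatives, and the number called was 5 whichever library was left out. With spike-in totals, which moved the median of all genes to 0.20, 3 of the 9 were called (CBX8 lower, PHC2 and RNF2 higher). Proliferation genes differed alongside: of 10 listed, 2 were higher and 7 lower at 12 h in MB468, 5 higher and 2 lower in MB468res-R8, and the response was higher in MB468res-R8 for 9, with CCNB1 at 1.07 (adjusted p = 7.52e-17), also 9 with spike-in totals. Their part in the values of the members was not tested.

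Other PRC1 subunits were listed without separating canonical from variant PCGF subunits, and 7 of their genes were tested. At 12 h, 3 were higher and 2 lower in MB468, with a median log2 fold change of 0.13. In MB468res-R8, 4 were higher and 2 lower, with a median of 0.14. Under spike-in totals the median in MB468 turned to -0.11, with 0 higher and 2 lower, and in MB468res-R8 2 were higher and 1 lower. SCMH1, a relative of Drosophila Sex comb on midleg, fell by 0.45 in MB468 (adjusted p = 2.66e-11), and in MB468res-R8 its relative SCML2 rose by 0.63 (adjusted p = 2.79e-11) while the Polyhomeotic subunit PHC1 fell by 0.70 (adjusted p = 5.60e-07). PCGF5, another PCGF subunit, rose by 0.43 in MB468 (adjusted p = 1.35e-06), and PHC3 rose by 0.41 in MB468res-R8 (adjusted p = 1.98e-08). At 2 h the only call was a fall of PCGF3 by 0.17 in MB468 (adjusted p = 0.0220), or 0.18 without replicate 2 (adjusted p = 0.0430), with 0 called in MB468res-R8. With spike-in totals, all 7 were lower in MB468 at 2 h (median -0.40), near the median of all genes at -0.42. Of the 15 partners of variant PRC1, 10 were higher and 2 lower at 12 h in MB468 (median 0.19) and 12 higher and 2 lower in MB468res-R8 (median 0.27). L3MBTL2, which sits in the same complex as PCGF6, rose by 0.66 in MB468 (adjusted p = 2.08e-15), RYBP by 0.66 (adjusted p = 2.14e-12), and BCORL1 by 0.83 (adjusted p = 1.32e-12) at 12 h. With spike-in totals, 4 were higher and 3 lower in MB468 (median -0.06) and 4 higher and 2 lower in MB468res-R8 (median 0.28), and L3MBTL2, RYBP, and BCORL1 were among the 4 in MB468. MGA, also of the complex that holds PCGF6, was at -0.08 in MB468 at 12 h under that scaling (adjusted p = 0.630). Under the main scaling it was at -0.45 in MB468 at 2 h without replicate 2 (adjusted p = 3.56e-06). The background at 12 h was 70.8% and 61.3% called.

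PRC2 writes the mark that the CBX proteins read. Of its 12 tested genes, 2 were higher and 6 lower at 12 h in MB468 (median -0.08), where 70.8% of all genes were called. In MB468res-R8, 6 were higher and 3 lower (median 0.12), against 61.3% of all genes. EED, its reader subunit, fell by 0.62 in MB468 (adjusted p = 2.52e-10), and EZH2, the methyltransferase, rose by 0.42 in MB468res-R8 (adjusted p = 2.17e-10). JARID2, a cofactor that recruits PRC2, fell by 1.68 in MB468res-R8 at 12 h (adjusted p = 4.86e-24), with a difference between the lines of -1.36 (adjusted p = 6.67e-17). With spike-in totals the PRC2 counts were 0 higher and 6 lower in MB468 and 5 higher and 2 lower in MB468res-R8.

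Of 7 tested genes of the machinery that removes ubiquitin from histone H2A, 4 were higher and 1 lower at 12 h in each line. The medians were 0.43 in MB468 and 0.23 in MB468res-R8, where 70.8% and 61.3% of all genes were called. FOXK2, a forkhead partner of the deubiquitinase, rose by 1.11 in MB468 (adjusted p = 1.41e-24). ASXL2 and ASXL1, which activate the deubiquitinase BAP1, rose by 0.79 and 0.64 in MB468 (adjusted p = 4.23e-18 and 1.12e-16) and by 0.53 and 0.36 in MB468res-R8 (adjusted p = 3.68e-12 and 4.25e-09). With spike-in totals, FOXK2 (0.87), ASXL2 (0.56), and ASXL1 (0.41) stayed called higher at 12 h in MB468. BAP1 was at 0.20 there (adjusted p = 0.180) and FOXK1 at -0.46 (adjusted p = 0.00100). The 3 chromobox genes of heterochromatin protein HP1, which share the CBX name, were all lower at 12 h in MB468. CBX5 was at -0.92 (adjusted p = 4.37e-21), CBX3 at -0.55, and CBX1 at -0.13. In MB468res-R8, CBX3 (0.32) and CBX1 (0.14) were higher and CBX5 (-0.17) lower, and with spike-in totals only the CBX3 call was kept there, while all 3 stayed lower in MB468.

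**Figure D4:**
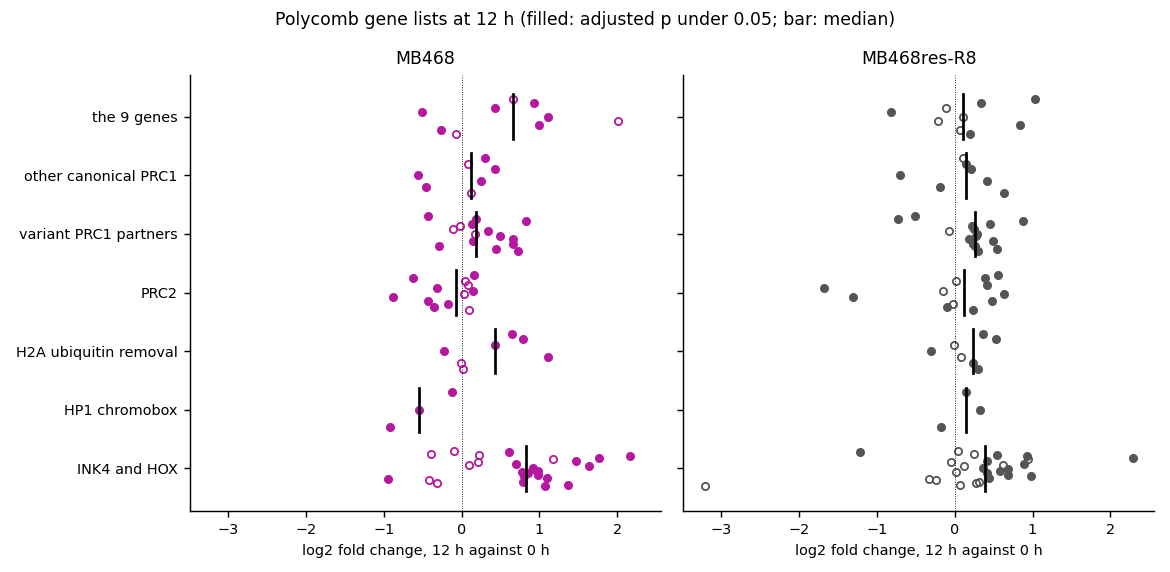
Log2 fold change at 12 h against 0 h (horizontal axis) for each tested gene of 7 lists in MB468 (left, magenta) and MB468res-R8 (right, grey), where filled points passed an adjusted p under 0.05 and the black bar is the list's median. The list labelled other canonical PRC1 also holds PCGF genes of variant complexes. The medians of the 9 genes were 0.66 and 0.11 (0.43 and 0.11 without BMI1 and PCGF2), and those of the PRC2 list -0.08 and 0.12.

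The genes whose course was most like that of CBX2 were ranked by Pearson's r over the 8 group means of log2 CPM, centred within each line, among the 10947 genes whose mean log2 CPM reached 2. The 5 highest were GGA3 (r = 0.974), TIRAP (0.969), REST (0.965), BAHD1 (0.965), and NKX1-2 (0.963), and these values describe 8 points that share the libraries of CBX2. In MB468, REST, a repressor of neuronal genes, had group means of 1339, 1384, 958.0, and 2247 normalized counts at 0, 0.5, 2, and 12 h, and in MB468res-R8 1151, 1346, 963.3, and 1432. BAHD1, a protein of silent chromatin, had 1243, 1318, 932.4, and 1634 in MB468 and 1203, 1385, 1024, and 1389 in MB468res-R8. The swing of GGA3 was narrower, from 1612 at 2 h to 2026 at 12 h in MB468. Among the members, CBX6 (r = 0.69) and PCGF6 (0.66) were nearest to CBX2, with CBX8 at 0.49 and CBX7 at -0.55.

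**Figure D5:**
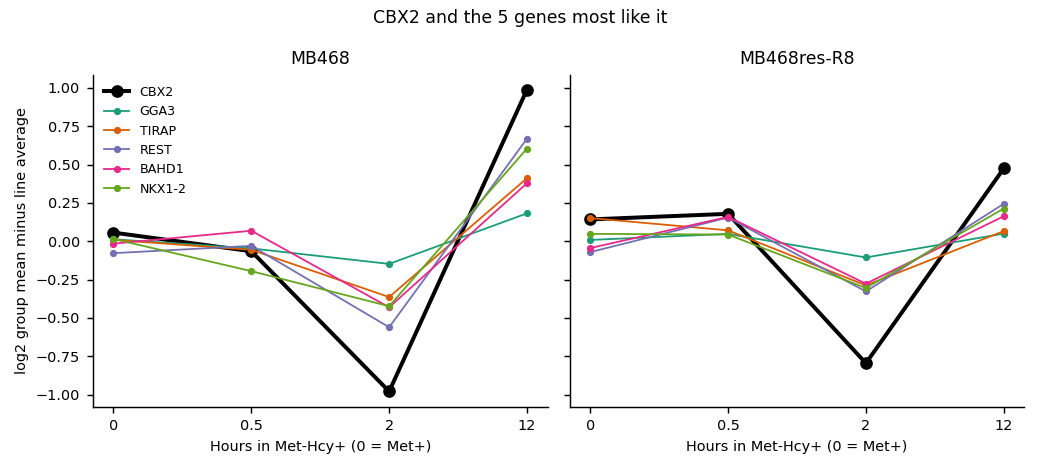
Log2 of the group mean minus the average of the line's 4 means (vertical axis) against hours in Met-Hcy+ for CBX2 (black) and the 5 genes most like it, in MB468 (left) and MB468res-R8 (right). CBX2 has the widest swing of the 6, with group means of 1056 at 2 h and 4132 at 12 h in MB468.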

How the data were processed

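Poly(A) RNA with added spike-in RNAs was sequenced from 24 libraries. The authors aligned the reads with HISAT2 2.1.0 against a GRCh38/hg38 reference extended by the spike-ins, and assigned them to genes by featureCounts (Subread 1.5.3), and the deposited table used here holds raw counts per gene, with no normalization. Annotation release and the settings for strand and shared exons are not given in the sources used here. A deposited table of normalized values for 18 of the libraries and a table of the authors' own comparisons (fold changes and p-values) were not used.

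The test was the quasi-likelihood test of edgeR 4.0.16 (R 4.3.3): spike-ins were left out, filterByExpr (minimum count 10, minimum total 15) kept 14741 genes, and TMM factors and a robust fit of 8 group means gave every contrast. P-values were adjusted over all tested genes. Whether the replicates are separate cultures is not in the labels, so p-values measure the spread between these libraries. No 2 libraries of a group were identical. Gene positions and exon overlaps were taken from GENCODE (GRCh38).

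Members and gene lists were chosen with earlier results of these data known. Named genes are the 9 members, up to 3 genes with the smallest p per list, and the 5 genes most like CBX2. The PCGF2 neighbours, BAP1, FOXK1, and MGA were named after their values were seen. A gene of the lists is not reported here and enters no list count. Alternatives were DESeq2's size factors and Wald test (version 1.42.0), spike-in totals, no low-count filter, fits to the compared groups, leaving out each library, and the replicate number as a block, and the CBX2 response counted from 0.5 h was added after the data were seen. Same-numbered libraries deviated together in all 3 pairs only for MB468 at 12 h and 0.5 h (correlations 0.175 to 0.410), and the block changed no count there. For MB468res-R8 at 2 h and 0 h the correlations were -0.029 to 0.466, with a mean of 0.277. The code was tested on simulated counts.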

Additional observations from a re-analysis of the deposited data

Results flagged for a closer look

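Responses that differed between the lines, each tested in the edgeR fit by subtracting the MB468 change from the MB468res-R8 change, are given on the log2 scale. At 12 h the response was lower in MB468res-R8 for CBX8 (-1), CBX2 (-0.60), CBX6 (-0.54), and CBX7 (-0.31), and higher for PHC2 (0.34) and RNF2 (0.26). At 0.5 h it was higher for PHC2 (0.26). Of these, CBX7 lost its call in 17 of 18 alternatives, CBX2 and CBX6 lost theirs under spike-in totals (adjusted p = 0.115 and 0.200), RNF2 lost its call without replicate 2 of MB468res-R8 at 12 h (adjusted p = 0.0504), and PHC2 at 0.5 h lost its call under 5 alternatives. These 7 values came from 9 members at 0.5 h and 12 h and 8 at 2 h.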

How the results depend on the processing

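Numbers of members called changed by over 1.5 times under 2 settings that kept all libraries. With spike-in totals as library sizes they were 1 in place of 3 for MB468res-R8 at 0.5 h, 3 in place of 5 at 12 h, 2 in place of 5 for 12 h against 2 h, and 2 in place of 4 for 12 h against 0.5 h, and for the difference between the lines 0 in place of 1 at 0.5 h, 1 in place of 0 at 2 h, and 3 in place of 6 at 12 h. The CBX8 difference at 0 h turned to -0.09. That scaling moved the share of higher genes among all calls from 54.32% to 2.523% for MB468 at 2 h from 49.41% to 14.98% between the lines at 0 h, from 51.76% to 13.96% for MB468 at 0.5 h, from 50.98% to 30% at 12 h, and from 49.59% to 65.44% for 12 h against 2 h. For the difference between the lines it moved from 41.36% to 79.21% at 0.5 h, from 43.24% to 93.02% at 2 h, and from 46.34% to 69.9% at 12 h. Without the low-count filter the numbers were 1 in place of 0 for MB468res-R8 at 2 h and, for the difference between the lines, 2 in place of 1 at 0.5 h and 1 in place of 0 at 2 h, the added gene being PCGF2. The cause was not tested.

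Leaving out each library in turn gave 5 to 6 members between the lines at 0 h. For MB468res-R8 it gave 1 to 3 at 0.5 h, 3 to 5 at 12 h, and 3 to 5 for 12 h against 2 h. For the difference between the lines it gave 0 to 1 at 0.5 h and 0 to 2 at 2 h. With the replicate block, 125 of 126 single values kept their call, the exception being the CBX7 difference at 12 h (-0.31, adjusted p = 0.0547). Apart from MB468 at 12 h and 0.5 h, no comparison had a positive correlation in all its pairs of same-numbered libraries. BMI1 and PCGF2 are limited by low or scattered counts, and the values at 0.5, 2, and 12 h include time in culture and the change of medium itself.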

Other observations

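Classic targets of Polycomb silencing, the HOX genes and the INK4 genes, were measured beside the members. Of 41 listed genes 26 were tested, and 17 were higher and 1 lower at 12 h than at 0 h in MB468, with a median log2 fold change of 0.82, against 70.8% of all genes called and a median of 0.01. In MB468res-R8, 12 were higher and 1 lower, a smaller share than the 61.3% of all genes called, with a median of 0.39 against -0.02. HOXC10 rose by 0.85 in MB468 (adjusted p = 9.00e-16) and by 0.41 in MB468res-R8 (adjusted p = 4.30e-07). HOXC13 was at -0.55 in MB468 and -0.52 in MB468res-R8 at 2 h (adjusted p = 8.13e-05 and 3.45e-04; -0.61 in MB468 without replicate 2 at 2 h) and at 1.09 in MB468 at 12 h (adjusted p = 1.53e-14). CDKN2B, the cell cycle inhibitor next to CDKN2A, had group means of 1367, 1497, 1690, and 2081 normalized counts in MB468 at 0, 0.5, 2, and 12 h and 1361, 1573, 1647, and 586.8 in MB468res-R8, and its 12 h responses differed by -1.82 on the log2 scale (adjusted p = 3.31e-21).

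With spike-in totals as library sizes, the HOX and INK4 genes were 14 higher and 3 lower at 12 h in MB468 and 11 higher and 1 lower in MB468res-R8. COMMD3, the other partner of the read-through gene, was not called against 0 h at 12 h in either line, with log2 fold changes of -0.35 in MB468 (adjusted p = 0.0857) and 0.34 in MB468res-R8 (adjusted p = 0.124). Its 12 h response was called higher in MB468res-R8 than in MB468, by 0.69 on the log2 scale, where 56.5% of all genes were called.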
